A study of Mus musculus with 14 samples.

Results

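The tumour suppressor p53, encoded by Trp53, and 9 genes around it were followed in thymus from mice that develop T-cell leukaemia under an Lmo2 transgene. The members are Trp53, its inhibitors Mdm2 and Mdm4, and the targets Ccng1, Zmat3, Sesn2, Phlda3, Aen, Bax and Bbc3. They were found by their names in a table of raw read counts, which gave 10 of its 46946 genes, and all 10 passed the filter on low counts that left 17087 genes for testing. The gene list was set by name and not by its counts, although earlier results of these data were known when it was drawn up.

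RNA-seq was performed on 14 thymus libraries of C57BL/6;CBA mice, which fell into 4 groups of Lmo2 mice and 1 group of healthy mice. The Rosa26-Lmo2+Sca1-Cre group (n = 3, 9 months of age) carried an Lmo2 allele in the Rosa26 locus that Cre under the Sca1 promoter opens in blood stem and progenitor cells, after which their progeny keep it open. The Sca1-Lmo2 group (n = 4, 7 to 8 months of age) had Lmo2 itself under the Sca1 promoter, with patchy expression among thymic T cells that were not tumour cells. The study reports that leukaemic cells of this model had lost Lmo2. The Rosa26-Lmo2+Mb1-Cre group (n = 2, 20 months of age) had the Rosa26 allele opened at the pro-B stage, and the single Rosa26-Lmo2+Aid-Cre mouse (22 months of age) had it opened in germinal centre B cells. Wild-type (WT) mice (n = 4, 4 months of age) were healthy and younger than the leukaemic mice of every group, so that age and leukaemia cannot be told apart. Mice with the allele opened in B-lineage cells were older than all others, so that age and the stage of opening cannot be told apart either. By the labels RNA came from frozen thymus, whereas the study's methods mention blasts. The study screened Trp53 for mutations in mice of these models, which the labels do not tie to these libraries, and mutation status was not analysed here.

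The p53 protein is a transcription factor that binds DNA as a tetramer and switches on genes for growth arrest, repair and cell death when DNA is damaged or an oncogene is active. Mdm2, itself a target of p53, marks p53 for degradation, and Mdm4 binds p53 and blocks its activity, which closes a feedback loop. In the thymus p53 removes damaged or wrongly rearranged T-cell precursors, and mice without p53 are known for thymic lymphoma.

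The sequence that p53 binds is written as a pair of 10-base half-sites with a spacer of 0 to 13 bases between them, and this p53 response element consensus was searched on both strands of RefSeq promoter windows (GRCm38.p6, 250 bases before to 50 after a gene start). Windows existed for 9 of the 10 members, with 13 windows in all, since some genes have several starts. The closest matches are shown because they belong to 3 targets whose RNA behaved differently in the tumours, one called in no model (Ccng1), one higher in the Rosa26-Lmo2+Mb1-Cre model (Bax) and one near the threshold there (Aen). Capitals mark the half-sites.
Ccng1: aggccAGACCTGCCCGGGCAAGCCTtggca
Bax: tgacAAGCATATCCcAGGCAAGCTTtgaa
Aen: cGGGCTTGTCCgggcaagGAGCTTCCGCa

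The Ccng1 stretch (chr11:40755457-40755486, minus strand) matched 19 of 20 positions of the consensus with a spacer of 0. The Bax stretch (chr7:45467086-45467114, minus strand) matched 19 of 20 with a spacer of 1. As many matches were found in 1.09% of all 32851 windows. The Aen stretch (chr7:78895936-78895964, plus strand) matched 18 of 20 with a spacer of 7, which 10.1% of windows equalled or passed. The best stretches of the other 6 members with a window matched 16 or 17 positions, a number that at least 45.1% of windows reach. A fully matching half-site was found in 6 of the 13 member windows, among them 2 overlapping windows of Aen that hold the same one, against 8.36% of all windows. These matches describe letters in a window and were not read as binding sites.

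Library totals lay between 42985130 and 47667663 counts, and values are given as CPM, a count relative to library size, after TMM scaling, which sets libraries on a common level by the bulk of their genes. A member held between 121 counts (Phlda3, WT replicate 4) and 23418 counts (Mdm4, WT replicate 4) in a library, so counting error was small beside the spread between mice. Spread, as the biological coefficient of variation over all genes, was 0.616 for Rosa26-Lmo2+Sca1-Cre, 0.549 for Sca1-Lmo2 and 0.462 for Rosa26-Lmo2+Mb1-Cre, against 0.299 for WT. Reads on genes silent in thymus were more frequent in Rosa26-Lmo2+Sca1-Cre replicate 3 (0.771 per kb) than elsewhere (0.122 to 0.232 per kb). At that rate background would make up at most 2.81% of the counts of any member in any library. The 12 thymocyte markers were detected in every library, and their summed level reached 2858 to 6979 CPM among Rosa26-Lmo2+Sca1-Cre, 3584 to 6727 CPM in Sca1-Lmo2, 4898 to 4916 CPM in Rosa26-Lmo2+Mb1-Cre and 4705 CPM in Rosa26-Lmo2+Aid-Cre, against 9590 to 10957 CPM in WT. In bulk thymus, fewer cells of a type and less RNA per cell cannot be told apart, and this holds for every level given here.

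**Figure D1:**
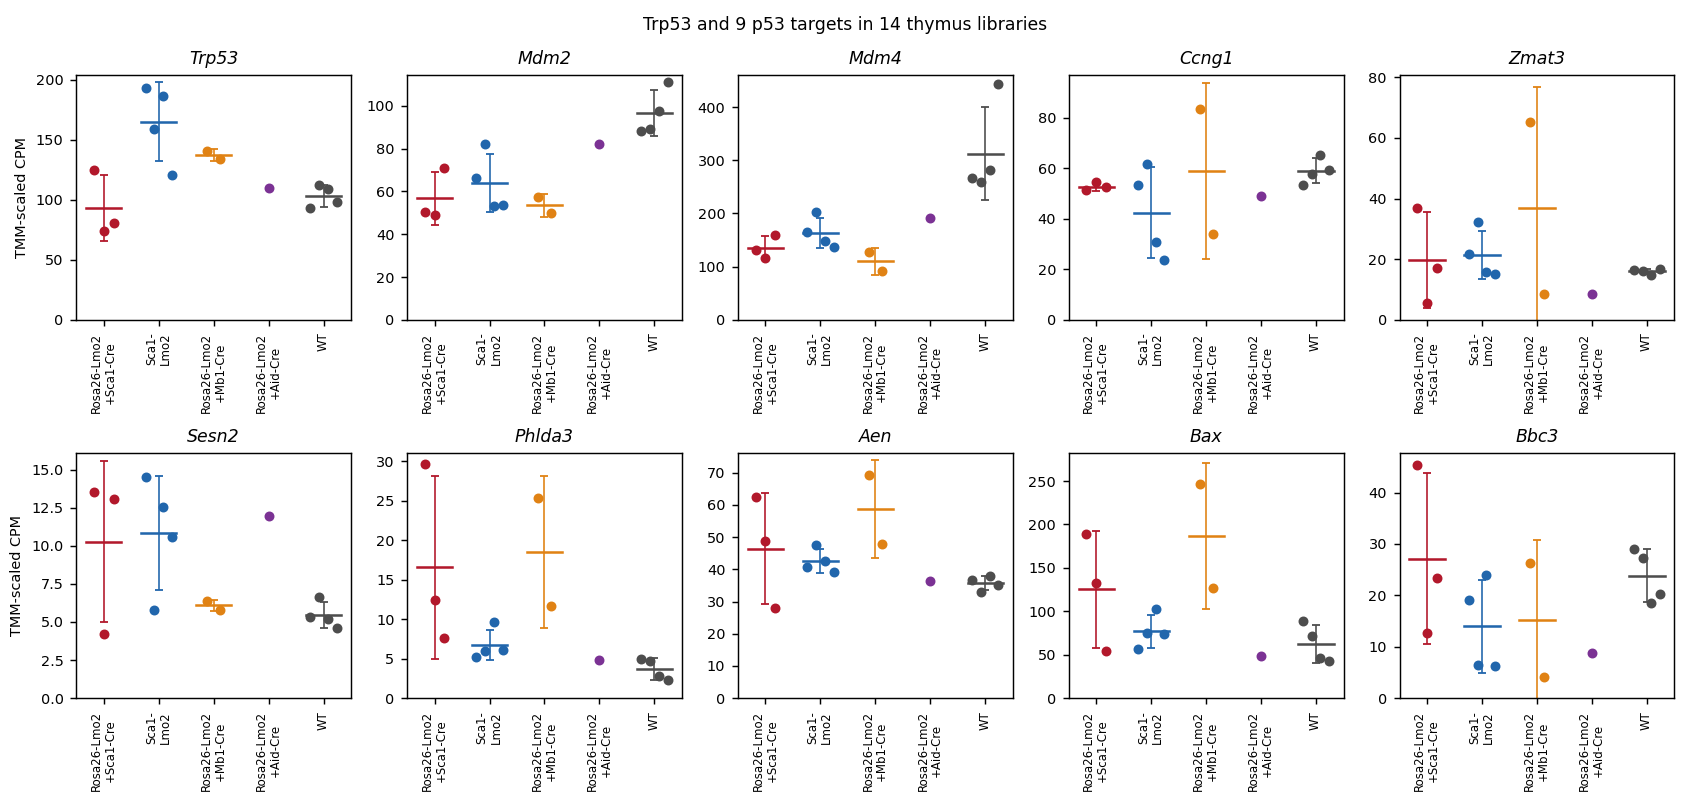
Level of Trp53 and 9 p53 genes in TMM-scaled CPM (vertical axes, each from 0) in the 5 groups (horizontal axes). Points are libraries, horizontal lines group means and vertical lines the SD, which end at the axis where they would pass below 0. All 10 tumour libraries lie below all 4 WT libraries for Mdm2 and Mdm4, and tumours of the same group scatter widely for Zmat3, Phlda3, Bax and Bbc3.

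Trp53 RNA was higher than WT in Sca1-Lmo2 tumours and was not in Rosa26-Lmo2+Sca1-Cre tumours. Trp53 (chromosome 11, 69580359 to 69591873, plus strand) stood at 125, 73.9 and 80.6 CPM in Rosa26-Lmo2+Sca1-Cre, at 193, 159, 186 and 121 CPM in Sca1-Lmo2, at 140.4 and 134 CPM in Rosa26-Lmo2+Mb1-Cre and at 109.6 CPM in Rosa26-Lmo2+Aid-Cre, against 93.2, 112, 109 and 97.8 CPM in WT. With TMM, all Sca1-Lmo2 and Rosa26-Lmo2+Mb1-Cre libraries lay above all WT libraries, while Rosa26-Lmo2+Sca1-Cre held the lowest values of the series in replicates 2 and 3 and a value above WT in replicate 1. Sca1-Lmo2 averaged 165 ± 32.8 CPM and WT 103 ± 8.93 CPM (SD, n = 4 each). Against WT the fitted change of Trp53 on the log2 scale was 0.68 (SE 0.201, adjusted p = 0.0314) in Sca1-Lmo2, -0.15 (SE 0.217, adjusted p = 0.634) for Rosa26-Lmo2+Sca1-Cre and 0.41 (SE 0.242, adjusted p = 0.200) in Rosa26-Lmo2+Mb1-Cre. The 3 comparisons share the 4 WT libraries and are not independent of each other. The call in Sca1-Lmo2 no longer held when its replicate 1 or 3, or any one of the 4 WT libraries, was left out, with adjusted p between 0.0574 and 0.0853. On library totals, with TMM left out, it was lost as well (0.48, adjusted p = 0.156). On that scale Sca1-Lmo2 replicate 4 (126 CPM) lay within the WT range of 102 to 131 CPM, Rosa26-Lmo2+Mb1-Cre replicate 2 (99.6 CPM) and Rosa26-Lmo2+Sca1-Cre replicate 1 (97.6 CPM) lay below it, and the fitted value of Rosa26-Lmo2+Mb1-Cre turned to -0.04 (adjusted p = 0.914). By mean level the order was Sca1-Lmo2, Rosa26-Lmo2+Mb1-Cre, Rosa26-Lmo2+Aid-Cre, WT and Rosa26-Lmo2+Sca1-Cre. Of the neighbours in it, Sca1-Lmo2 and Rosa26-Lmo2+Mb1-Cre did not differ by the test (Rosa26-Lmo2+Mb1-Cre over Sca1-Lmo2 -0.27, SE 0.248, adjusted p = 0.474), nor did WT and Rosa26-Lmo2+Sca1-Cre, and the Aid-Cre library was not tested.

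Both inhibitors of p53 were lower in every tumour than in any WT thymus. Mdm2 (chromosome 10, 117688888 to 117710758, minus strand), the ubiquitin ligase of p53, stood at 50.3, 49.1 and 70.9 CPM in Rosa26-Lmo2+Sca1-Cre, at 66.3, 82.3, 53.4 and 53.6 CPM in Sca1-Lmo2, at 57.3 and 49.7 CPM in Rosa26-Lmo2+Mb1-Cre and at 82.0 CPM in Rosa26-Lmo2+Aid-Cre, against 88.2, 89.2, 97.4 and 111 CPM in WT. The highest tumour values, in Sca1-Lmo2 replicate 2 and in Rosa26-Lmo2+Aid-Cre, came close to the lowest WT value, and the groups did not overlap. Of the genes tested, 7.19% were likewise lower in all 10 tumour libraries than in all WT libraries. On the log2 scale Mdm2 differed from WT by -0.77 (SE 0.204, adjusted p = 0.0197) for Rosa26-Lmo2+Sca1-Cre, -0.60 (SE 0.186, adjusted p = 0.0387) in Sca1-Lmo2 and -0.85 (SE 0.236, adjusted p = 0.0169) in Rosa26-Lmo2+Mb1-Cre. Group means fell by 1.70-fold, 1.51-fold and 1.80-fold in that order of models.

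These Mdm2 calls were near the threshold. In Rosa26-Lmo2+Sca1-Cre the call was lost without replicate 1 (adjusted p = 0.0686), without replicate 2 (adjusted p = 0.0688) and without WT replicate 4 (adjusted p = 0.0589). In Sca1-Lmo2 it was lost in 11 of 17 alternative fits, among them those that left out its replicate 1, 3 or 4 or any one WT library, and in Rosa26-Lmo2+Mb1-Cre without replicate 2 (adjusted p = 0.140). The direction was lower in each of these fits.

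Mdm4 changed more than Mdm2. It encodes the partner of Mdm2 that binds the activation domain of p53 and lacks strong ligase activity of its own. Mdm4 (chromosome 1, 132959484 to 133030561, minus strand) stood at 132, 116 and 159 CPM in Rosa26-Lmo2+Sca1-Cre, at 165, 203, 148 and 137 CPM in Sca1-Lmo2, at 127 and 92.3 CPM in Rosa26-Lmo2+Mb1-Cre and at 192 CPM in Rosa26-Lmo2+Aid-Cre, against 266, 259, 282 and 443 CPM in WT. The groups were well apart, with the highest tumour (Sca1-Lmo2 replicate 2) below the lowest WT library, and WT replicate 4 stood far above the other WT libraries. Tested against WT, Mdm4 changed by -1.20 (SE 0.248, adjusted p = 0.00879) for Rosa26-Lmo2+Sca1-Cre, -0.94 (SE 0.224, adjusted p = 0.0126) in Sca1-Lmo2 and -1.51 (SE 0.293, adjusted p = 0.00379) in Rosa26-Lmo2+Mb1-Cre. Without WT replicate 4 the fold was -0.99 in Rosa26-Lmo2+Sca1-Cre and -1.30 in Rosa26-Lmo2+Mb1-Cre, both still called. The call held in all 16 and all 17 alternative fits of the Rosa26-Lmo2+Sca1-Cre model and the Sca1-Lmo2 model, and in Rosa26-Lmo2+Mb1-Cre it was lost without replicate 2 (adjusted p = 0.0555). The span of Mdm4 overlaps that of the antisense gene Gm29257 over 639 bp, and without strand the reads of both cannot be separated. Gm29257 held 0.00372 to 0.158 times the counts of Mdm4.

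The table lists each gene by its whole span from start to end, and span lengths moved with the direction of the changes. Whether reads in introns were counted is not given in the sources used here. Mdm4 has the longest span of the members (71078 bp), while Phlda3 (3018 bp) and Bax (5204 bp), described next, have the shortest. For all genes that passed the test against WT in the Rosa26-Lmo2+Sca1-Cre model, the median span was 11720 bp for higher and 21527 bp for lower genes, and in Rosa26-Lmo2+Mb1-Cre against WT it was 11125.5 bp and 24702 bp, and in Sca1-Lmo2 against WT 17578.5 bp and 20771 bp, beside 17832 bp over all genes tested. With the trend on span removed from each library, Mdm4 still differed by -1.05 (adjusted p = 0.00596) for Rosa26-Lmo2+Sca1-Cre, -0.86 (adjusted p = 0.00623) in Sca1-Lmo2 and -1.21 (adjusted p = 0.00324) in Rosa26-Lmo2+Mb1-Cre on the log2 scale, and every member called without this correction was called with it.

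Phlda3, a repressor of Akt signalling that p53 induces, rose in both models that carry the Rosa26 allele with replicates. Phlda3 (chromosome 1, 135766119 to 135769136, plus strand) stood at 29.7, 12.4 and 7.59 CPM in Rosa26-Lmo2+Sca1-Cre, at 5.23, 6.02, 9.6 and 6.08 CPM in Sca1-Lmo2, at 25.3 and 11.7 CPM in Rosa26-Lmo2+Mb1-Cre and at 4.82 CPM in Rosa26-Lmo2+Aid-Cre, against 5.01, 4.71, 2.77 and 2.29 CPM in WT. With TMM, all tumours but the Rosa26-Lmo2+Aid-Cre library were above all WT libraries. The margin was wide in the first replicate of both Rosa26 models and narrow in Sca1-Lmo2 replicate 1. That library (5.25 CPM) lay below WT replicate 1 (5.46 CPM) on library totals. Against WT it rose on the log2 scale by 2.17 (SE 0.483, adjusted p = 0.0112) for Rosa26-Lmo2+Sca1-Cre and 2.33 (SE 0.522, adjusted p = 0.00681) in Rosa26-Lmo2+Mb1-Cre, or 4.49-fold and 5.01-fold. In Sca1-Lmo2 the value was 0.87 (SE 0.447, adjusted p = 0.184). The Rosa26-Lmo2+Sca1-Cre call held in all 16 alternative fits, with the smallest fold (1.44, adjusted p = 0.0456) without replicate 1. In Rosa26-Lmo2+Mb1-Cre the log2 fold change was 1.67 without replicate 1 and the call was lost (adjusted p = 0.0717).

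Bax, whose protein opens the outer membrane of mitochondria in apoptosis, rose in Rosa26-Lmo2+Mb1-Cre. Bax (chromosome 7, 45461695 to 45466898, minus strand) stood at 189, 133 and 54.5 CPM in Rosa26-Lmo2+Sca1-Cre, at 57.0, 75.0, 103 and 73.5 CPM in Sca1-Lmo2, at 246 and 127 CPM in Rosa26-Lmo2+Mb1-Cre and at 48.8 CPM in Rosa26-Lmo2+Aid-Cre, against 88.3, 71.5, 46.2 and 42.7 CPM in WT. With TMM, Rosa26-Lmo2+Mb1-Cre was above WT without overlap. In Rosa26-Lmo2+Sca1-Cre replicates 1 and 2 were above WT on that scale, while replicate 3 was within it. On library totals replicate 2 of both models (94.9 CPM in Rosa26-Lmo2+Mb1-Cre and 93.7 CPM in Rosa26-Lmo2+Sca1-Cre) lay below WT replicate 1 (96.4 CPM). Set against WT on the log2 scale, the change was 1.59 (SE 0.439, adjusted p = 0.0165) in Rosa26-Lmo2+Mb1-Cre, 1.01 (SE 0.399, adjusted p = 0.0753) for Rosa26-Lmo2+Sca1-Cre and 0.31 (SE 0.372, adjusted p = 0.583) in Sca1-Lmo2. Without Rosa26-Lmo2+Mb1-Cre replicate 1 the fold was 1.04 (adjusted p = 0.172), and without Rosa26-Lmo2+Sca1-Cre replicate 3 Bax was called higher in that model (log2 fold change 1.37, adjusted p = 0.0157).

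With TMM, the level of Bax moved with a property of the libraries, in part by construction. A CPM is divided by the TMM factor of its library, so a low factor by itself raises every value there. The 5 libraries with the highest Bax, namely both of Rosa26-Lmo2+Mb1-Cre, Sca1-Lmo2 replicate 3 and replicates 1 and 2 of Rosa26-Lmo2+Sca1-Cre, were also the 5 with the lowest TMM factors (0.706 to 0.946, against 1.01 to 1.23 in the others). They also held the highest levels of Rpl11, a ribosomal protein that can inhibit Mdm2, with 4509.5 and 5353 CPM in the Rosa26-Lmo2+Sca1-Cre pair, 2299 CPM in the Sca1-Lmo2 library and 2894 and 5563 CPM in Rosa26-Lmo2+Mb1-Cre, against 538 to 1472 CPM in WT. A set of 7 genes that copy mitochondrial DNA took 9.01% and 9.92% of counts in replicates 1 and 2 of Rosa26-Lmo2+Sca1-Cre and 4.48% and 4.93% in Rosa26-Lmo2+Mb1-Cre, against 2.54% to 3.87% in WT. This share did not follow Bax in every library, with 6.72% in Rosa26-Lmo2+Aid-Cre, where Bax was lowest among the tumours, and 3.11% in Sca1-Lmo2 replicate 3, within the WT range. On library totals WT replicate 1 (96.4 CPM) held more Bax than Sca1-Lmo2 replicate 3 (95.3 CPM) and replicate 2 of both Rosa26 models, so this order of libraries was lost. The part of these properties in the levels of Bax and Phlda3 was not tested. With TMM left out, Bax in Rosa26-Lmo2+Mb1-Cre still rose (1.20 on the log2 scale, adjusted p = 0.0346), as did Phlda3 in Rosa26-Lmo2+Mb1-Cre (1.95, adjusted p = 0.0141) and in Rosa26-Lmo2+Sca1-Cre (1.69, adjusted p = 0.0230).

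Aen, an exonuclease that p53 induces in apoptosis, was called in no model by edgeR with all groups and TMM. On the TMM scale it lay a little above WT in most tumours. Aen (chromosome 7, 78895854 to 78911209, plus strand) stood at 62.4, 48.7 and 28.1 CPM in Rosa26-Lmo2+Sca1-Cre, at 40.6, 47.6, 42.6 and 39.2 CPM in Sca1-Lmo2, at 69.4 and 48.0 CPM in Rosa26-Lmo2+Mb1-Cre and at 36.4 CPM in Rosa26-Lmo2+Aid-Cre, against 36.7, 33.0, 38.0 and 35.0 CPM in WT. With TMM it was above all WT libraries in 8 of the 10 tumours and below all of them in Rosa26-Lmo2+Sca1-Cre replicate 3. On library totals WT ranged from 37.2 to 45.7 CPM. On that scale only Rosa26-Lmo2+Sca1-Cre replicate 1 (48.9 CPM), Sca1-Lmo2 replicate 2 (52.3 CPM) and Rosa26-Lmo2+Mb1-Cre replicate 1 (65.6 CPM) lay above it. Replicates 2 and 3 of Rosa26-Lmo2+Sca1-Cre (34.3 and 32.3 CPM) and Rosa26-Lmo2+Mb1-Cre replicate 2 (35.7 CPM) lay below it. Relative to WT the log2 change came to 0.72 (SE 0.265, adjusted p = 0.0521) in Rosa26-Lmo2+Mb1-Cre, 0.38 (SE 0.238, adjusted p = 0.243) for Rosa26-Lmo2+Sca1-Cre and 0.25 (SE 0.222, adjusted p = 0.437) in Sca1-Lmo2. The Rosa26-Lmo2+Mb1-Cre value passed the threshold with other size factors (0.73, adjusted p = 0.0482), with DESeq2 (0.73, adjusted p = 0.0344), with only the 2 groups in the fit (0.76, adjusted p = 0.0152) and after the correction for span (0.75, adjusted p = 0.0410). On library totals Aen in Rosa26-Lmo2+Sca1-Cre changed sign (-0.10, adjusted p = 0.771), and it was called higher without replicate 3 (0.64, adjusted p = 0.0287).

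Bbc3, which encodes the BH3-only protein PUMA, varied widely between tumours of the same group. Bbc3 (chromosome 7, 16309616 to 16318205, plus strand) stood at 45.4, 12.8 and 23.3 CPM in Rosa26-Lmo2+Sca1-Cre, at 19.1, 6.36, 24 and 6.29 CPM in Sca1-Lmo2, at 26.2 and 4.20 CPM in Rosa26-Lmo2+Mb1-Cre and at 8.82 CPM in Rosa26-Lmo2+Aid-Cre, against 29.0, 27.4, 18.6 and 20.2 CPM in WT. With TMM, it was below all WT libraries in 5 of 10 tumours and above all of them in 1. Every model with replicates then held tumours on both sides of the lowest WT value. All Sca1-Lmo2 libraries lay below the lowest WT value on library totals (6.58 to 22.28 CPM, against 22.34 CPM). The fitted log2 values of Bbc3 against WT were 0.19 (SE 0.632, adjusted p = 0.842) for Rosa26-Lmo2+Sca1-Cre, -0.77 (SE 0.590, adjusted p = 0.369) in Sca1-Lmo2 and -0.64 (SE 0.739, adjusted p = 0.517) in Rosa26-Lmo2+Mb1-Cre. On library totals the Rosa26-Lmo2+Sca1-Cre value was -0.20 (adjusted p = 0.833).

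Zmat3, an RNA-binding zinc finger protein of the p53 response, was equally scattered in the tumours and nearly constant in WT. Zmat3 (chromosome 3, 32334792 to 32366014, minus strand) stood at 36.8, 5.47 and 17.1 CPM in Rosa26-Lmo2+Sca1-Cre, at 21.8, 32.3, 15.8 and 15.3 CPM in Sca1-Lmo2, at 65.1 and 8.36 CPM in Rosa26-Lmo2+Mb1-Cre and at 8.48 CPM in Rosa26-Lmo2+Aid-Cre, against 16.4, 16.1, 14.8 and 16.7 CPM in WT. In 5 tumours it was above and in 3 below all WT libraries, and its lowest values fell to replicate 2 of both Rosa26 models. The highest tumour held 11.9 times the level of the lowest. No model was called, with log2 fold changes of 0.31 (SE 0.628) in Rosa26-Lmo2+Sca1-Cre, 0.41 (SE 0.585) in Sca1-Lmo2 and 1.20 (SE 0.691) in Rosa26-Lmo2+Mb1-Cre. The sign rested on single libraries. Without replicate 1 the value of Rosa26-Lmo2+Mb1-Cre was -0.93, and without its replicate 2 it was 2.03. In Rosa26-Lmo2+Sca1-Cre the values were -0.49 and 0.76 with the same replicates left out. On library totals the value of Zmat3 in Rosa26-Lmo2+Sca1-Cre was -0.08.

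Sesn2, a stress-induced inhibitor of mTORC1, was high in part of the tumours. Sesn2 (chromosome 4, 132492032 to 132510501, minus strand) stood at 13.6, 4.22 and 13.1 CPM in Rosa26-Lmo2+Sca1-Cre, at 14.5, 5.82, 12.6 and 10.5 CPM in Sca1-Lmo2, at 6.35 and 5.82 CPM in Rosa26-Lmo2+Mb1-Cre and at 11.9 CPM in Rosa26-Lmo2+Aid-Cre, against 5.34, 6.65, 5.17 and 4.60 CPM in WT. In 6 tumours it was above all WT libraries, while replicate 2 of Rosa26-Lmo2+Sca1-Cre, replicate 2 of Sca1-Lmo2 and both Rosa26-Lmo2+Mb1-Cre libraries were at or below the WT range. For Sesn2 the log2 values against WT were 0.92 (SE 0.405, adjusted p = 0.104) for Rosa26-Lmo2+Sca1-Cre, 1.00 (SE 0.381, adjusted p = 0.0796) in Sca1-Lmo2 and 0.16 (SE 0.461, adjusted p = 0.805) in Rosa26-Lmo2+Mb1-Cre. Without replicate 2 of the model Sesn2 was called higher in Rosa26-Lmo2+Sca1-Cre (1.29, adjusted p = 0.0307) and in Sca1-Lmo2 (1.21, adjusted p = 0.0372). In Sca1-Lmo2 it was also called with only the 2 groups in the fit (0.99, adjusted p = 0.0375) and by DESeq2 (0.99, adjusted p = 0.0369).

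Ccng1, or cyclin G1, which links phosphatase activity to Mdm2, was called in no model, and its promoter window held one of the closest matches to the p53 consensus printed above. Ccng1 (chromosome 11, 40748552 to 40755311, minus strand) stood at 51.2, 54.4 and 52.4 CPM in Rosa26-Lmo2+Sca1-Cre, at 53.3, 61.6, 31.0 and 23.5 CPM in Sca1-Lmo2, at 83.3 and 34.1 CPM in Rosa26-Lmo2+Mb1-Cre and at 49.0 CPM in Rosa26-Lmo2+Aid-Cre, against 53.4, 57.8, 65.3 and 59.4 CPM in WT. It was below all WT libraries in 7 of 10 tumours, lowest in Sca1-Lmo2 replicates 3 and 4, and above all of them in Rosa26-Lmo2+Mb1-Cre replicate 1. The log2 values of Ccng1 against WT were -0.16 (SE 0.339) in Rosa26-Lmo2+Sca1-Cre, -0.48 (SE 0.313) in Sca1-Lmo2 and -0.01 (SE 0.383) in Rosa26-Lmo2+Mb1-Cre, with adjusted p between 0.293 and 0.993.

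**Figure D2:**
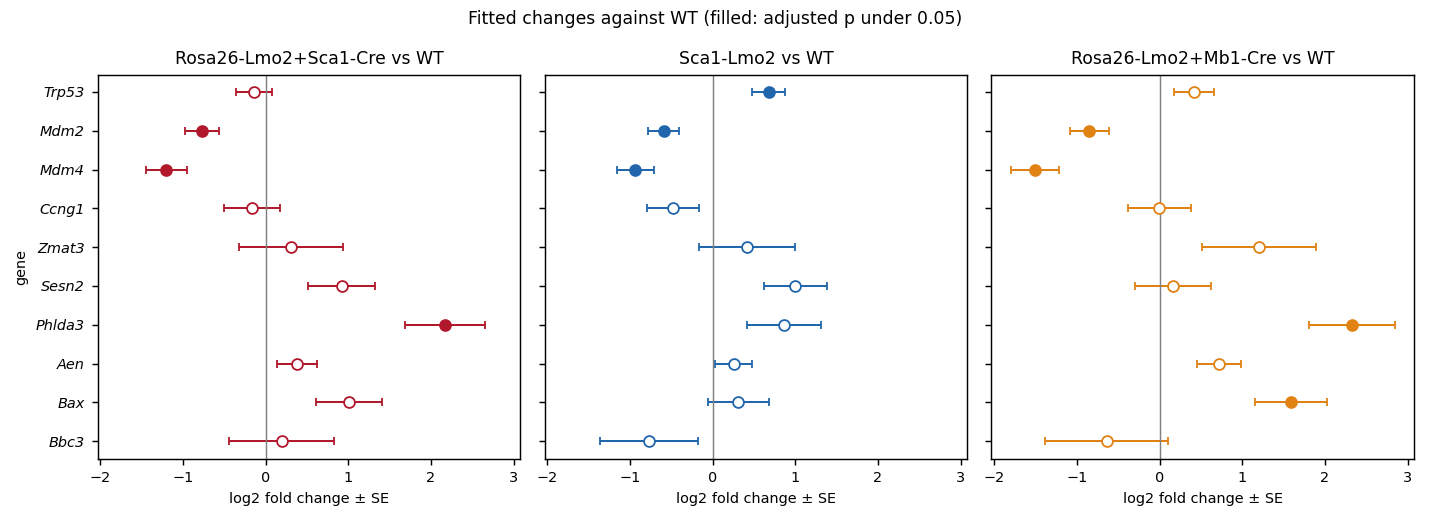
Fitted log2 fold change against WT (horizontal axis, points with SE bars) of the 10 genes (vertical axis) in 3 models, one panel each. Filled points passed an adjusted p of 0.05. Mdm2 and Mdm4 lie left of 0 in all 3 panels, and Phlda3 lies furthest right in all but Sca1-Lmo2, where Sesn2 does.

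Counted by model, 3 of 10 members passed the test in Rosa26-Lmo2+Sca1-Cre against WT (1 higher, 2 lower), where 26.9% of all genes did (16.5% higher, 10.4% lower). In Sca1-Lmo2 against WT 3 of 10 were called (1 higher, 2 lower), against 22.3% of all genes (12.1% higher, 10.2% lower). In Rosa26-Lmo2+Mb1-Cre against WT 4 of 10 were called (2 higher, 2 lower), against 35.1% of all genes (19.7% higher, 15.4% lower). These shares are near those over all genes and are no result about the members. With 1 library left out, the number of all genes called against WT was 1969 to 4959 beside 4589 in Rosa26-Lmo2+Sca1-Cre (lowest without WT replicate 4), 2223 to 3840 beside 3815 in Sca1-Lmo2 (lowest without WT replicate 4) and 1598 to 5471 beside 6001 in Rosa26-Lmo2+Mb1-Cre (lowest without its replicate 2). The median log2 fold change of the 9 genes other than Trp53 was 0.31 for Rosa26-Lmo2+Sca1-Cre, 0.25 for Sca1-Lmo2 and 0.16 for Rosa26-Lmo2+Mb1-Cre, beside 0.06, 0.05 and -0.01 over all genes. With TMM, no overlap with WT was found for 3, 5 and 6 of the 10 members in the same order of models, and for 37.4%, 32.6% and 62.8% of all genes. Leaving out 1 library at a time gave 2 to 5, 1 to 4 and 2 to 4 members called, with 5 in Rosa26-Lmo2+Sca1-Cre without its replicate 3 and 1 in Sca1-Lmo2 without its replicate 1 or 3 or any one WT library. In Rosa26-Lmo2+Mb1-Cre the 2 calls left without replicate 1 were both lower and the 2 left without replicate 2 both higher. A lone library left in an arm is assumed to vary like the other groups.

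Between models, 1 member differed by the test. Sca1-Lmo2 had more Trp53 RNA than Rosa26-Lmo2+Sca1-Cre (165 ± 32.8 CPM, n = 4, against 93.0 ± 27.5 CPM, n = 3), a difference of 0.83 on the log2 scale (SE 0.221, adjusted p = 0.0379), where 9.89% of all genes were called (1690 genes, and 341 without Sca1-Lmo2 replicate 1). The groups overlapped, since Rosa26-Lmo2+Sca1-Cre replicate 1 (125 CPM) passed Sca1-Lmo2 replicate 4 (121 CPM). The call was lost in 8 of 16 alternative fits, among them those without Rosa26-Lmo2+Sca1-Cre replicate 2 or 3 and without Sca1-Lmo2 replicate 1, 2 or 3, with adjusted p up to 0.153. For Phlda3 the value was -1.30, which did not pass the test (SE 0.476, adjusted p = 0.0919).

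With Rosa26-Lmo2+Mb1-Cre set against Rosa26-Lmo2+Sca1-Cre, 0 members were called by edgeR, where 0.211% of all genes were. At an unadjusted p under 0.05 there was 1 (Trp53), and DESeq2 and limma-voom called 0. Between Rosa26-Lmo2+Mb1-Cre and Sca1-Lmo2 0 were called by edgeR as well, where 10.5% of all genes were (1800 genes, and 17 without Rosa26-Lmo2+Mb1-Cre replicate 2 or 37 without Sca1-Lmo2 replicate 1). Phlda3 (log2 fold change 1.46, SE 0.523, adjusted p = 0.0830) and Bax (1.28, SE 0.440, adjusted p = 0.0746) came closest. Both had an unadjusted p under 0.05 and were the 2 that DESeq2 called, while limma-voom called 0. With TMM, Rosa26-Lmo2+Mb1-Cre was above Sca1-Lmo2 without overlap for Phlda3, Aen and Bax and below it for Mdm4. Such a separation in either direction was found for 38.8% of all genes. On library totals only that of Mdm4 was left. Replicate 2 of Rosa26-Lmo2+Mb1-Cre then fell below Sca1-Lmo2 replicate 3 for Phlda3 (8.71 against 8.89 CPM), Aen (35.7 against 39.5 CPM) and Bax (94.9 against 95.3 CPM).

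**Figure D3:**
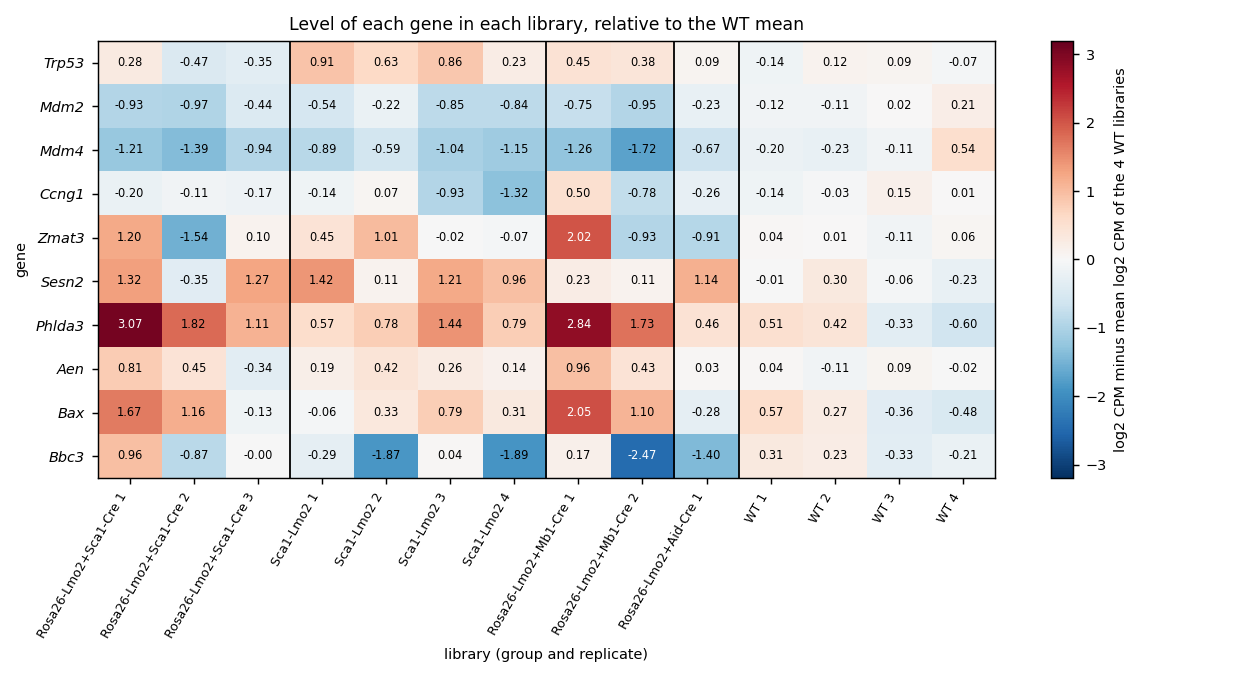
Log2 CPM of each gene (vertical axis) minus its mean over the 4 WT libraries, in each of 14 libraries (horizontal axis), with red for higher and blue for lower and the value in each cell. Mdm2 and Mdm4 are blue in all 10 tumours, and the first replicate of both Rosa26 models with replicates is red for Zmat3, Phlda3, Aen and Bax.

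The 9 genes other than Trp53 did not move together in single tumours, which are here set against WT with TMM. Rosa26-Lmo2+Sca1-Cre replicate 1 had 6 of the 9 above the WT range and 3 below it, with a median of 0.96 relative to the WT mean on the log2 scale. Rosa26-Lmo2+Mb1-Cre replicate 1 had 5 above and 2 below, with a median of 0.50. By contrast Rosa26-Lmo2+Mb1-Cre replicate 2 had 3 above and 5 below, with a median of -0.78. Rosa26-Lmo2+Sca1-Cre replicate 2 had the same counts above and below, with a median of -0.35. The 4 Sca1-Lmo2 tumours had 3 or 4 above and 3 or 4 below, with medians from -0.07 to 0.11, and the Rosa26-Lmo2+Aid-Cre library had 1 above and 5 below, with a median of -0.26. Replicates 1 and 2 of Rosa26-Lmo2+Sca1-Cre, of the same age, stood on opposite sides of WT for Zmat3, Bbc3 and Sesn2. They stood on the same side for Mdm2, Mdm4, Phlda3, Aen and Bax. On library totals they stood on opposite sides for Aen as well (48.9 and 34.3 CPM, against 37.2 to 45.7 CPM in WT). Bax in replicate 2 (93.7 CPM) then lay within the WT range of 52.4 to 96.4 CPM. Above WT in replicate 2 of both Rosa26 models was then only Phlda3.

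Genes whose pattern was most like that of a member were looked up by Pearson's r of log2 CPM over the 14 libraries, as a description without a test, since all points share libraries and scaling. The genes most like Mdm2 were Edrf1 (r = 0.99), Sik3 (0.97) and Ino80d (0.97), and those most like Mdm4 were AV039307 (0.98), Ogt (0.97) and Ccnl1 (0.97). Mdm2 and Mdm4 followed each other closely (r = 0.95), with Mdm4 at rank 32 of 17086 genes for Mdm2. Those most like Phlda3 were Uimc1, Gm13740 and Fhl2 (0.95, 0.94 and 0.94), and those most like Bax were Ntmt1, Mrpl34 and Klhdc4 (0.97, 0.94 and 0.93). Phlda3 took rank 4 for Bax (r = 0.93), and Bax rank 2 for Aen (r = 0.86). Trp53 was most like Colgalt1 (0.94), Elp2 (0.90) and Prpf6 (0.90), and the closest other member was Zmat3 at rank 2116 (r = 0.46).

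Beyond the members, 35 further p53 targets were listed, of which 34 were in the table by name and 30 were tested. In Rosa26-Lmo2+Sca1-Cre against WT 6 were higher, 5 lower and 19 not called, beside 26.9% of all genes called. Their median log2 fold change was -0.11, beside 0.06 over all genes tested. In Sca1-Lmo2 4 were higher, 8 lower and 18 not called, beside 22.3% of all genes called, with a median of -0.04, beside 0.05. In Rosa26-Lmo2+Mb1-Cre 7 were higher, 9 lower and 14 not called, beside 35.1% of all genes called, with a median of -0.51, beside -0.01. The targets thus moved in both directions in each model, as did the genes called over all.

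Cdkn1a, the cell cycle inhibitor p21 and the best known p53 target, stood at 3.92, 3.67 and 12.8 CPM in Rosa26-Lmo2+Sca1-Cre, 6.31, 3.10, 6.88 and 8.18 CPM in Sca1-Lmo2, 7.39 and 4.05 CPM in Rosa26-Lmo2+Mb1-Cre and 3.27 CPM in Rosa26-Lmo2+Aid-Cre, against 3.10, 4.98, 3.98 and 2.95 CPM in WT. All groups overlapped with WT, and Cdkn1a was not called in Rosa26-Lmo2+Sca1-Cre (0.86, adjusted p = 0.199), Sca1-Lmo2 (0.70, adjusted p = 0.292) or Rosa26-Lmo2+Mb1-Cre (0.61, adjusted p = 0.406). Its highest value fell to Rosa26-Lmo2+Sca1-Cre replicate 3, where Phlda3, Bax and Aen were the lowest of their group.

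By role, Sesn1, the sestrin of the same family as Sesn2, and Ddb2, a sensor of DNA lesions in nucleotide excision repair, were lower in all 3 models. Sesn1 ranged from 30.2 to 65.7 CPM in the 10 tumours, against 94.4 to 126 CPM in WT, with log2 fold changes of -1.58, -1.39 and -1.87 in the 3 models in the order used so far (adjusted p from 0.00158 to 0.00303). Ddb2 ranged from 32.7 to 49.3 CPM in tumours, against 79.7 to 95.3 CPM in WT, with log2 fold changes of -1.0, -0.97 and -1.15 (adjusted p from 0.00169 to 0.00352). Neither gene overlapped between tumours and WT. Of all genes tested, 7.19% were likewise lower in all 10 tumour libraries than in all WT libraries.

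Ptpn14, a phosphatase that restrains YAP, was higher in all 3 models, with 60.9 to 293 CPM in tumours against 20.7 to 34.7 CPM in WT and log2 fold changes of 1.65, 3.07 and 1.92 (adjusted p from 0.000179 to 0.00492). Abhd4, a lipase of N-acyl phospholipids, stood at 4.57 to 26.2 CPM in tumours against 2.98 to 4.05 CPM in WT and rose by 2.12, 2.2 and 1.83 on the log2 scale (adjusted p from 0.00468 to 0.0121), the last of which was not called without Rosa26-Lmo2+Mb1-Cre replicate 2 (adjusted p = 0.0700). Siva1, an apoptosis-inducing factor, was the most firmly called higher target in Rosa26-Lmo2+Mb1-Cre, with 159 and 174 CPM against 21.6 to 41.6 CPM in WT (log2 fold change 2.35, adjusted p = 0.00169).

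**Figure D4:**
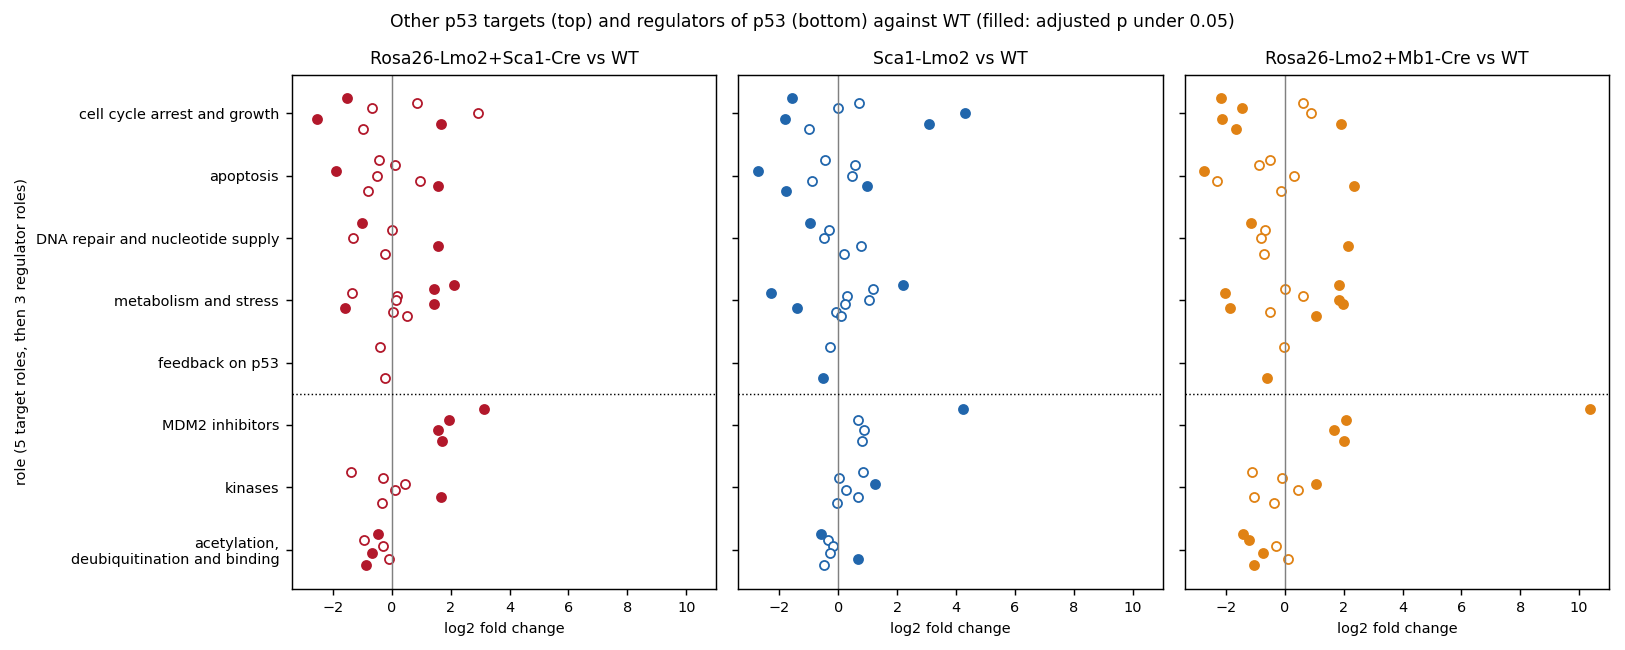
Log2 fold change against WT (horizontal axis) of 30 other p53 targets (upper 5 rows, by role) and 16 regulators of p53 (lower 3 rows) in 3 models, one panel each. Filled points passed an adjusted p of 0.05. Filled points lie on both sides of 0 in 4 of the 5 target roles, and Cdkn2a is the point at 10.37 in Rosa26-Lmo2+Mb1-Cre.

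Of 18 regulators of p53 on a list, 16 were tested. In Rosa26-Lmo2+Sca1-Cre 5 were higher, 3 lower and 8 not called, beside 26.9% of all genes called. In Sca1-Lmo2 3 were higher, 1 lower and 12 not called, beside 22.3% of all genes called. In Rosa26-Lmo2+Mb1-Cre 5 were higher, 4 lower and 7 not called, beside 35.1% of all genes called. The 4 listed inhibitors of MDM2 (Cdkn2a, Rpl5, Rpl11 and Rpl23) were all higher in Rosa26-Lmo2+Sca1-Cre, with a median of 1.83, and in Rosa26-Lmo2+Mb1-Cre, with a median of 2.05. In Sca1-Lmo2 1 of the 4 (Cdkn2a) was called, with a median of 0.85. The 3 ribosomal proteins among them have many near-identical pseudogenes, so that their counts are uncertain. Rpl11 rose by 1.94 in Rosa26-Lmo2+Sca1-Cre (adjusted p = 0.0143) and Rpl5 by 2.01 in Rosa26-Lmo2+Mb1-Cre (adjusted p = 0.00819) on the log2 scale. In Rosa26-Lmo2+Sca1-Cre Rpl23 was not called without replicate 1, WT replicate 3 or WT replicate 4 (adjusted p from 0.0527 to 0.0565). Rpl5 was not called there without WT replicate 4 (adjusted p = 0.0507). With a block for replicate number all 4 inhibitors lost their call in that model (adjusted p from 0.0575 to 0.0775). Without Rosa26-Lmo2+Mb1-Cre replicate 2, Rpl5, Rpl11 and Rpl23 were no longer called there (adjusted p from 0.108 to 0.174).

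Cdkn2a encodes p19Arf, which binds Mdm2, and p16Ink4a from overlapping transcripts that these counts cannot separate. It stood at 5.87, 0.129 and 0.759 CPM in Rosa26-Lmo2+Sca1-Cre, at 2.47, 5.19, 3.31 and 8.28 CPM in Sca1-Lmo2, at 299 and 384 CPM in Rosa26-Lmo2+Mb1-Cre and at 112 CPM in Rosa26-Lmo2+Aid-Cre, against 0.290, 0.278, 0.189 and 0.265 CPM in WT. The libraries of the models opened in B-lineage cells were far above all others. Their mice were also the oldest (20 and 22 months, against 4 to 9 months), so that age and the stage of opening cannot be told apart. Rosa26-Lmo2+Sca1-Cre replicate 2 and all WT libraries lay well under the 1 CPM of the filter, so their order rests on few reads. Cdkn2a passed the filter through tumour libraries only, and its fold changes rest on a WT level near the floor. Cdkn2a rose on the log2 scale by 3.13 (SE 0.867, adjusted p = 0.0229), 4.22 (SE 0.851, adjusted p = 0.00612) and 10.37 (SE 1.08, adjusted p = 0.000414) in the same 3 models. The Rosa26-Lmo2+Sca1-Cre value of Cdkn2a rested on replicate 1, without which it was 0.88 and not called (adjusted p = 0.321). That call was also lost without WT replicate 3 or 4 (adjusted p of 0.0649 and 0.0622) and by limma-voom (1.78, adjusted p = 0.264).

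Among the other regulators, the kinase gene Hipk2 was higher in Rosa26-Lmo2+Sca1-Cre (1.68, adjusted p = 0.0143) and the deubiquitinase gene Usp10 in Sca1-Lmo2 (0.68, adjusted p = 0.0135). Usp7, a deubiquitinase of Mdm2 and p53, was lower in Rosa26-Lmo2+Sca1-Cre (-0.87, adjusted p = 0.0148) and Rosa26-Lmo2+Mb1-Cre (-1.06, adjusted p = 0.00847). The acetyltransferase gene Crebbp was lower in Sca1-Lmo2 (-0.58, adjusted p = 0.0149) and Rosa26-Lmo2+Mb1-Cre (-1.40, adjusted p = 0.00102). Trp53bp1, a mediator of the response to DNA breaks, was lower in Rosa26-Lmo2+Sca1-Cre (-0.66, adjusted p = 0.0151). Crebbp was also called lower in Rosa26-Lmo2+Sca1-Cre and Trp53bp1 in Rosa26-Lmo2+Mb1-Cre. That Crebbp call was lost whichever library of either group was left out (adjusted p from 0.0633 to 0.120). That Trp53bp1 call was lost after the correction for span (-0.43, adjusted p = 0.0537). Several of these calls were lost with 1 library left out. Hipk2 (adjusted p = 0.0591) and Usp7 (adjusted p = 0.0523) were not called without Rosa26-Lmo2+Sca1-Cre replicate 1, Trp53bp1 without its replicate 2 (adjusted p = 0.0538), Usp7 without Rosa26-Lmo2+Mb1-Cre replicate 2 (adjusted p = 0.0813), and Crebbp in Sca1-Lmo2 without WT replicate 4 (adjusted p = 0.0508).

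Markers of other cells moved with the models as well. The 7 myeloid markers summed to 288 to 423 CPM in Rosa26-Lmo2+Sca1-Cre, 63.2 to 139 CPM in Sca1-Lmo2, 234 to 861 CPM in Rosa26-Lmo2+Mb1-Cre and 358 CPM in Rosa26-Lmo2+Aid-Cre, against 86.0 to 160.4 CPM in WT, with none at 0, and 3, 0 and 5 of them were called higher against WT in the 3 models in the order used so far. The 7 markers of thymic epithelium summed to 9.09 to 32.8 CPM in the tumours, against 50.9 to 71.9 CPM in WT, with up to 3 at 0 in a Sca1-Lmo2 library. The 15 cell cycle genes summed to 912 to 2251 CPM in Rosa26-Lmo2+Sca1-Cre, 2332 to 3116 CPM in Sca1-Lmo2 and 2158 to 3665 CPM in Rosa26-Lmo2+Mb1-Cre, against 1568 to 2548 CPM in WT, and 0, 2 and 2 of them were called. Thymocyte markers fell for 7 of 12 genes in Rosa26-Lmo2+Sca1-Cre and for 3 of 12 each in Sca1-Lmo2 and Rosa26-Lmo2+Mb1-Cre. In the same order 1, 1 and 0 of the 12 were called higher. Ptcra was above all WT libraries in all 10 tumours (38.2 to 535 CPM, against 23.2 to 36.8 CPM in WT). Of 6 stromal and endothelial markers tested, 5 were called higher and 1 lower in Rosa26-Lmo2+Sca1-Cre, with a median log2 fold change of 3.52, 2 were higher in Sca1-Lmo2, and 3 were higher and 1 lower in Rosa26-Lmo2+Mb1-Cre. All 8 of them summed to 113 to 157 CPM in Rosa26-Lmo2+Sca1-Cre, 125 to 196 CPM in Sca1-Lmo2, 88.3 to 94.8 CPM in Rosa26-Lmo2+Mb1-Cre and 112 CPM in Rosa26-Lmo2+Aid-Cre, against 117 to 126 CPM in WT, with up to 1 at 0. The 6 B cell markers summed to 10.1 to 43.4 CPM in Rosa26-Lmo2+Sca1-Cre, 5.36 to 35.9 CPM in Sca1-Lmo2, 5.10 to 7.65 CPM in Rosa26-Lmo2+Mb1-Cre and 57.7 CPM in Rosa26-Lmo2+Aid-Cre, against 48.2 to 88.7 CPM in WT, with none at 0 and 1, 2 and 5 called lower in the 3 models. The 5 erythroid markers reached 604 to 4303 CPM, 576 to 1507 CPM, 1095 to 1401 CPM and 381 CPM in the 4 groups of tumours in that order, against 167 to 1406 CPM in WT, and 1 was called higher in each model tested. The 11 immediate-early and heat shock genes, which cells induce under stress, summed to 141 to 313 CPM in the tumours. WT held 356 to 445 CPM, so that by this sum all 10 tumours lay below all WT libraries. The single genes did not all fall. In Rosa26-Lmo2+Sca1-Cre 2 were called higher and 1 lower, with a median log2 fold change of 0.48. In Sca1-Lmo2 0 were higher and 2 lower (median -0.01), and in Rosa26-Lmo2+Mb1-Cre 2 were higher and 3 lower (median -0.67). The part of these cells and genes in the levels of the p53 genes was not tested.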

How the data were processed

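RNA-seq of 14 mouse thymus libraries was used. The authors prepared non-stranded TruSeq libraries, converted base calls with bcl2fastq, and aligned reads with TopHat2 2.1.0 to mm10/GRCm38. Unscaled read counts for each gene were deposited, beside the start and end of its span. The methods name the R package bamsignals for FPKM values, and the counter behind the counts is not given in the sources used here. After repeated lines were dropped 46946 genes were left, and coordinates are those of the table. Columns of other samples numbered 0.

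Counts were scaled by TMM in edgeR 4.0.16 (R 4.3.3). A gene was tested where 3 or more libraries reached 1 CPM (17087 genes). All 5 groups were fitted together with shared spread, and 6 comparisons were made by the two-sided quasi-likelihood F test with Benjamini-Hochberg adjustment over all genes tested and a threshold of 0.05. SE is the absolute log2 fold change divided by the square root of F. The Rosa26-Lmo2+Aid-Cre library entered the fit but no test. The labels number libraries within a group without naming animals, while the study gives its n as mice. Libraries of the same group differed by far more than counting error (chi-square per degree of freedom 66.6 to 613 over pairs). The p-values measure only the spread between these samples, and its technical part was not tested. Intervals of a share were not needed, and counting error was not modelled apart from the fit.

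Alternatives were other size factors, library totals, no filter, DESeq2 1.42.0, limma-voom (limma 3.58.1), only the 2 groups compared, each library left out, a replicate block, Sca1-Lmo2 replicates 1 and 3 as 1 library and, added after seeing the data, a correction for gene span (lowess of each library on log2 span, as offset). The fit was tested on simulated data. Log2 CPM used a prior count of 2.

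The members, gene lists and tests were chosen with earlier results of these data known. All 10 members were named. From each wider list the rule took, per comparison with WT, the 2 called genes with the smallest adjusted p in each direction, and Cdkn1a whatever its values. Marker and stress lists are given as sums or counts for length. For likeness, the 3 closest genes were named per called member, out of those whose log2 CPM averaged 3 or more.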

Additional observations from a re-analysis of the deposited data

Results flagged for a closer look

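Mdm4 in WT replicate 4 (443 CPM) stood apart from the other 3 WT libraries, which lay between 259 and 282 CPM, by more than Dixon's 95% limit for 4 samples, and chance flags about 1 in 20 such groups. The change of Trp53 against WT was larger in Sca1-Lmo2 than in the Rosa26-Lmo2+Sca1-Cre model by 0.83 on the log2 scale in a direct test of the 2 models (SE 0.221, adjusted p = 0.0379). Sesn2 in the Rosa26-Lmo2+Aid-Cre library, which took part in no comparison, was at 11.9 CPM, against 6.65 CPM in the highest WT library.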

How the results depend on the processing

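No log2 fold change of a member that was called changed sign under any alternative, while 8 of the 20 values against WT that were not called did under 1 or more. For Rosa26-Lmo2+Sca1-Cre against WT, leaving out 1 library gave 2 to 5 members called beside 3, and DESeq2 4 with Bax gained. For Sca1-Lmo2 against WT, 3 members became 1 on library totals, without the filter and with Sca1-Lmo2 replicates 1 and 3 as 1 library, and 1 to 4 when 1 library was left out, and it became 4, with Sesn2 gained, with DESeq2 and with only the 2 groups. For Rosa26-Lmo2+Mb1-Cre against WT, 4 became 2 to 4 when 1 library was left out, and 5, with Aen gained, with other size factors, DESeq2, only the 2 groups and the correction for span. For Sca1-Lmo2 against Rosa26-Lmo2+Sca1-Cre, 1 became 2 with DESeq2, 0 with only the 2 groups, 0 with the merged replicates and 0 to 1 when 1 library was left out. For Rosa26-Lmo2+Mb1-Cre against Sca1-Lmo2, 0 became 2 with DESeq2. The cause was not tested. Replicate numbers did not pair the samples (correlations of same-numbered libraries -0.40 to 0.17). With a replicate block, 2 members were called for Rosa26-Lmo2+Sca1-Cre, 1 for Sca1-Lmo2 and 2 in Rosa26-Lmo2+Mb1-Cre against WT, and 0 in Sca1-Lmo2 against Rosa26-Lmo2+Sca1-Cre. The calls lost against WT with the block were Mdm2 (adjusted p = 0.0752) in Rosa26-Lmo2+Sca1-Cre, Trp53 (0.0640) and Mdm2 (0.0987) in Sca1-Lmo2, and Mdm2 (0.0745) and Bax (0.0717) in Rosa26-Lmo2+Mb1-Cre. Library totals shifted the median log2 fold change of all genes against WT to -0.33 for Rosa26-Lmo2+Sca1-Cre, -0.14 for Sca1-Lmo2 and -0.46 for Rosa26-Lmo2+Mb1-Cre. In that order 1577, 1352 and 1828 genes were called higher and 2828, 1717 and 3546 lower, beside 2820, 2072 and 3362 higher and 1769, 1743 and 2639 lower with TMM. Sca1-Lmo2 against Rosa26-Lmo2+Sca1-Cre gave 739 higher and 719 lower on library totals, beside 614 and 1076. Over all genes, the counts called in the 3 comparisons with WT (4589, 3815 and 6001) became 1363, 2526 and 3187 with the replicate block. Sca1-Lmo2 against Rosa26-Lmo2+Sca1-Cre (1690 genes) became 8 with the block, 3603 with DESeq2, 9 with only the 2 groups, 3902 without the filter and 1070 with limma-voom. Rosa26-Lmo2+Mb1-Cre against Rosa26-Lmo2+Sca1-Cre (36 genes) became 0 with the block, with only the 2 groups and with other size factors, 1333 with DESeq2, 159 without the filter, 1 with limma-voom and 12 on library totals. Rosa26-Lmo2+Mb1-Cre against Sca1-Lmo2 (1800 genes) became 2 with the block, 3981 with DESeq2, 3 with only the 2 groups, 866 with limma-voom and 943 on library totals. With 1 library left out, the counts over all genes between models were 341 to 2129, 1 to 241 and 17 to 1866 in this order. Groups of 1 to 4 mice limit what can be told apart.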
